A study of Mus musculus with 24 samples.

Results

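The endothelin and renin-angiotensin genes comprised 9 genes, Edn1, Edn3, Ednra, Ednrb, Ece1, Agt, Ace, Agtr1a and Agtr2, of the 18539 gene symbols with a probe on the array. Their probes were found through the accession that each probe carries, which gave 14 of 41174 probes, and the probe with the highest mean signal in a tissue stands for the gene. The genes were measured in endothelial cells sorted as CD105+/CD45- from the aorta and from the skeletal muscle of the leg. The mice were male wild-type C57BL/6 (WT) and galectin-3 (-/-) knockout animals (KO, the Lgals3 deletion), put at 8 weeks of age on a high-fat diet (HFD, 60% of calories from fat) or on chow (12% of calories from fat) for 8 weeks. Aortic and muscle cells of 1 array each came from the same pooled animals, and 3 experiments gave 3 arrays for each of the 8 groups of tissue, strain and diet, 24 in all. Each WT and KO array is named here by its label.

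Endothelin-1 is a vasoconstrictor peptide that endothelial cells secrete after endothelin-converting enzyme has cut its precursor. It acts on the ETA receptor, which vascular smooth muscle carries and which constricts vessels, and on the ETB receptor, through which endothelial cells release nitric oxide and clear the peptide. Angiotensinogen is the substrate from which renin and then angiotensin-converting enzyme, an enzyme of the endothelial surface, make angiotensin II. Angiotensin II constricts vessels through the AT1 receptor, and the AT2 receptor is held to oppose it.

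Levels are given as log2 of the processed signal over the 75th percentile that the array had, and are compared between groups for the same probe only. Where diets or groups are said not to overlap, 3 arrays lay apart from 3 others. The share of all probes for which this held is not given here, so it describes the values and is no support for a response. The 75th percentile lay between 2390 and 5938 intensity units over the arrays, and the share of spots well above background ran from 59.5% to 75.7%. The 12 endothelial markers were well above background on every array, and the transcript of CD45, Ptprc, was so on 10 of 12 arrays in each tissue. The signal of the Lgals3 probe was higher in the KO array than in the WT array of the same tissue, diet and experiment in 11 of 12 pairs. Where that probe lies relative to the deleted exons is not given in the sources used here, so it checks no label. Tests in a tissue took the probes that at least 1 of its groups showed well above background on all 3 arrays, which left 8 of the 9 genes in aorta (all but Edn3) and 7 in muscle (all but Edn3 and Agtr2). HFD and chow were compared within slides, because a slide held the 4 groups of 1 tissue and experiment.

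The promoter sequences of Edn1, whose transcript was lower on HFD in every pair of arrays, and of Agt, which differed most between the tissues, are shown so that the genes the results turn on can be read beside their values. They are RefSeq windows of the GRCm38.p6 build, from 250 bases before to 50 bases after the annotated start, and 8 of the 9 genes had at least 1 such window. Capitals mark matches on either strand to the TATA box TATAAA, to CCAAT, to AGATAA, a motif of GATA factors, or to ACGTG, the core of hypoxia response elements. Matches to TGACTAA, a form of the AP-1 site, or to the AP-1 consensus TGANTCA are in capitals too. TGACTAA and TGANTCA were searched separately, and no stretch of letters can match both.
Edn1, chr13:42301226-42301525, plus strand: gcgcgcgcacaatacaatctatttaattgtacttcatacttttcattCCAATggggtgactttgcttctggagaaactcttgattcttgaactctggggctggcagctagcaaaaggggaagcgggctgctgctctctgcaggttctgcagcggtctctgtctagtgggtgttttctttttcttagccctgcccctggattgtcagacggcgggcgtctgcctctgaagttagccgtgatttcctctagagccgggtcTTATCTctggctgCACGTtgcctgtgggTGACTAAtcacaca
Agt, chr8:124569657-124569956, minus strand: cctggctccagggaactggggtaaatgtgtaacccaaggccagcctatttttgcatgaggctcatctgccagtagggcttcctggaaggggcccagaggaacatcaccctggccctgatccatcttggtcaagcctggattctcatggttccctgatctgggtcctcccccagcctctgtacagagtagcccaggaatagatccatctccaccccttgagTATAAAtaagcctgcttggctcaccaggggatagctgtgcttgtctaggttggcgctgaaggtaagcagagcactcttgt
The Edn1 window held CCAAT at position -203, AGATAA on the opposite strand at position 9, ACGTG on the opposite strand at position 22 and TGACTAA at position 37, counted from the annotated start and naming the first base of each match. Of 32851 windows of this length, 37.4% held CCAAT, 11.2% AGATAA, 19.6% ACGTG and 2.35% TGACTAA. The Agt window held TATAAA at position -30, as 13.6% of all windows did, and neither window held TGANTCA, found in 7.81% of all. These matches describe the letters and were tested for nothing else.

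Edn1, the endothelin-1 precursor, was lower on HFD in both strains and both tissues. In WT aorta, the level was 2.16, 4.16 and 4.03 on chow in experiments 1 to 3 and 1.40, 2.67 and 3.61 on HFD. In KO aorta, it was 3.79, 3.96 and 4.33 on chow and 1.497, 2.69 and 3.82 on HFD. Every HFD array lay below the chow array of its pair, although the 3 arrays of the diets overlapped in WT and 1 KO HFD array lay above the lowest KO chow array. The HFD/chow ratio on the log2 scale averaged -0.88 ± 0.55 (SD, n = 3) in WT aorta and -1.36 ± 0.89 in KO aorta. In WT muscle, the level was 2.85, 3.41 and 3.92 on chow and 2.22, 3.09 and 3.40 on HFD. In KO muscle, it was 3.74, 3.26 and 4.19 on chow and 2.46, 2.30 and 2.94 on HFD, so that the diets did not overlap in KO muscle. The muscle ratios were -0.49 ± 0.16 in WT and -1.17 ± 0.17 in KO.

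Within a tissue, the lower Edn1 level did not pass the threshold. Over both strains, it was -1.12 with a standard error (SE) of 0.28 in aorta (limma adjusted p = 0.206) and -0.83 (SE 0.14) in muscle (limma adjusted p = 0.0936). With only probes well above background on every array, the muscle value passed (limma adjusted p = 0.0457). Edn1 was lower on HFD in 12 of 12 pairs, with log2 ratios between -2.29 and -0.32, as were 0.65% of the 27387 probes tested over both tissues. A comparison of HFD with chow over all 12 pairs was added after these values had been seen. In it the Edn1 difference was -0.97 (SE 0.16, 1.97-fold, limma adjusted p = 0.0209). Of all probes, 2.71% were called in that comparison, and Edn1 and Agtr1a were the 2 called of 8 genes tested. That fit takes the pairs of both tissues as independent, although aorta and muscle of 1 number come from the same animals and the 12 pairs from 6 pairs of animal pools. With the levels of both tissues averaged in each pool, 0 of the 8 genes and 67 of the probes (0.245%) were called, and Edn1 was -0.97 (SE 0.17, limma adjusted p = 0.0855). Leaving out any 1 experiment ended both calls, with Edn1 between -1.13 and -0.84 and its limma adjusted p between 0.068 and 0.216. Of all probes, 743 were called with the 3 experiments and 0 to 9 with any 2. Edn1 is among the muscle transcripts that the study chose to show from these arrays, so that its direction there is not independent evidence. On average, the summed level of the endothelial markers was also lower on HFD in aorta. The HFD/chow ratio (log2) of that sum averaged -0.33 ± 0.75 (SD) in WT and -0.78 ± 0.70 in KO, against -0.05 and 0.03 in muscle. In experiment 3 of WT aorta the sum had a ratio of 0.54, where Edn1 had -0.41. In the other aortic pairs the sum was lower on HFD. Over all 12 pairs, all 12 endothelial markers were lower on HFD, with a median of -0.39 and none called. With both tissues averaged in each pool, they ran from -1.02 for Pecam1 to -0.01 for Kdr, beside -0.97 for Edn1. The part of these markers in the Edn1 values was not tested. In sorted cells read in bulk, fewer endothelial cells and less RNA per cell cannot be told apart.

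The aorta and muscle did not differ in Edn1 (0.03, SE 0.36, limma adjusted p = 0.957). The 8 group means ran from 4.03 ± 0.28 in KO chow aorta to 2.56 ± 0.34 in KO HFD muscle, with the 4 chow groups above the 4 HFD groups, and no neighbours in that order differed by more than the larger of their SDs.

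**Figure D1:**
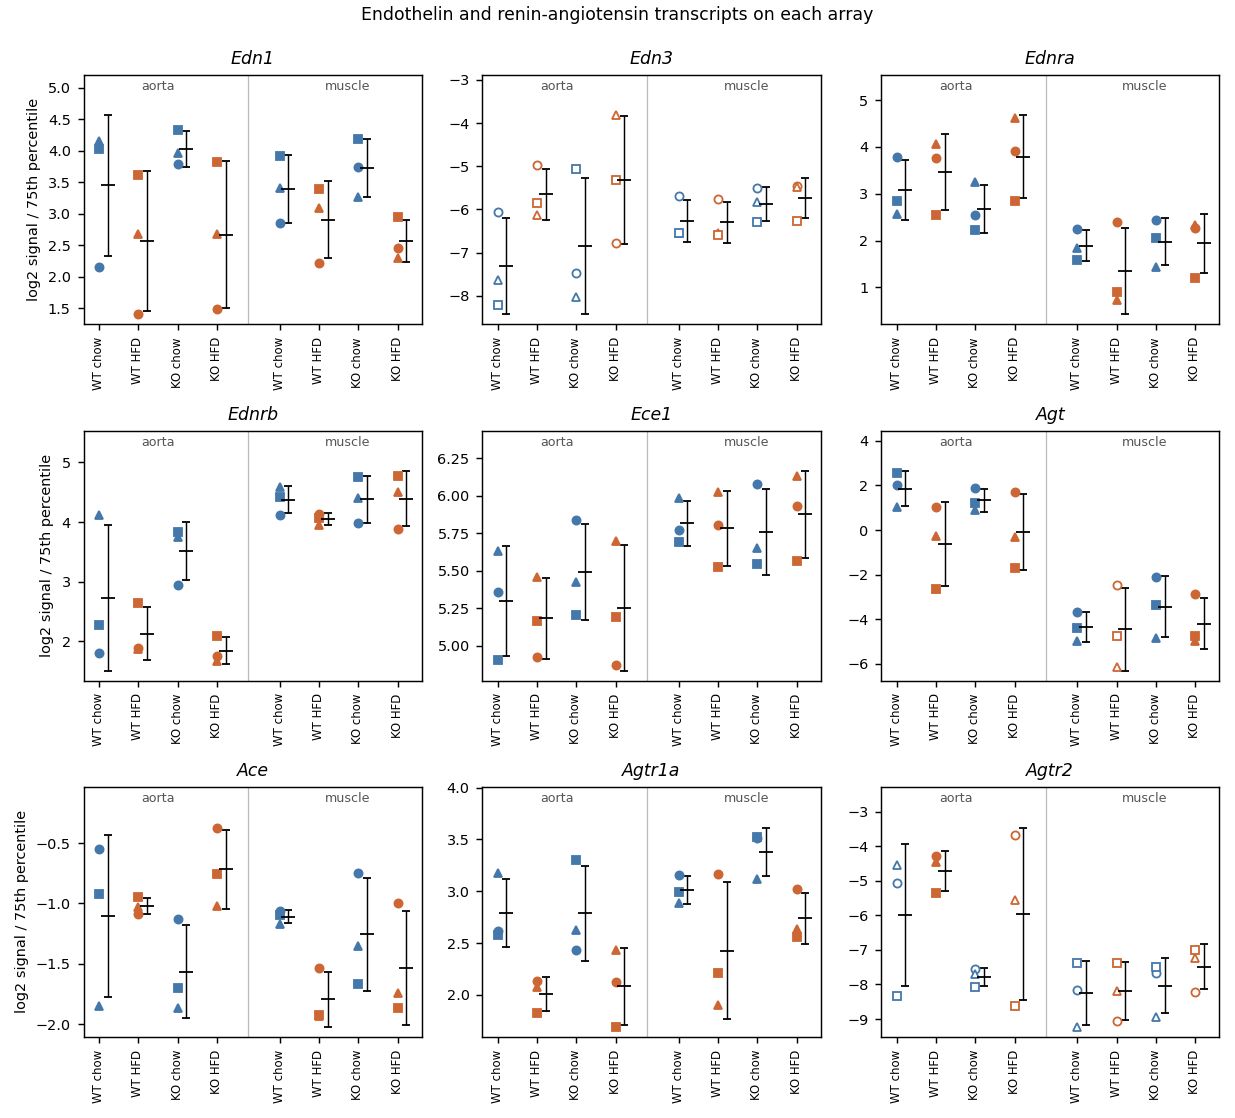
Level (log2 of signal over the 75th percentile of the array) of the 9 genes in the 8 groups; circles, triangles and squares are experiments 1, 2 and 3, bars show the mean and SD (n = 3), and open symbols mark groups in which the probe was not well above background on every array. Edn1 was lower on HFD in every pair, Ednra and Agt were higher in aorta, and Ednrb was higher in muscle.

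Edn3, the endothelin-3 precursor, is the preferred ligand of the ETB receptor in development, and neither of its probes was well above background on all arrays of any group. Its brighter probe of each tissue was well above background on 5 of 12 aortic and 7 of 12 muscle arrays. The level ranged from -8.22 to -3.82 in aorta and from -6.59 to -5.46 in muscle, and no comparison was made.

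Ece1, endothelin-converting enzyme 1, had similar levels in all groups. The aortic arrays lay between 4.87 and 5.84 (median 5.29) and the muscle arrays between 5.53 and 6.13 (median 5.79), and these ranges overlapped. Over both strains, HFD minus chow was -0.18 (SE 0.23) in aorta and 0.04 (SE 0.15) in muscle. The aorta was lower than the muscle by 0.50 (SE 0.18, limma adjusted p = 0.0489), where all probes together had a median of -0.27. Leaving out any 1 experiment ended the call, with limma adjusted p from 0.101 to 0.209.

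Ednra, the ETA receptor, was higher in aorta than in muscle. The aortic level was lowest at 2.24, had a median of 3.05 and was highest at 4.61, against 0.73, 1.94 and 2.44 in muscle, so that only 1 aortic array lay within the muscle range. The difference was 1.46 (SE 0.35, 2.76-fold, limma adjusted p = 0.0039). Without experiment 2 it was 1.18 and did not pass (limma adjusted p = 0.0821). A second Ednra probe was well above background on 2 of 12 aortic and no muscle arrays and was not tested. The 4 aortic group means, from 3.79 ± 0.89 in KO HFD to 2.68 ± 0.52 in KO chow, lay above the 4 muscle means, from 1.98 ± 0.50 in KO chow to 1.34 ± 0.92 in WT HFD. The step between KO chow aorta and KO chow muscle was the only one between neighbours that exceeded the larger SD.

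Ednra in KO aorta was 2.55, 3.25 and 2.24 on chow and 3.92, 4.61 and 2.85 on HFD. All 3 pairs were higher on HFD, by 1.11 ± 0.43 on average, and 1 HFD array lay below the highest chow array. In WT aorta, the ratio was 1.502 in experiment 2, and it was -0.03 and -0.30 in experiments 1 and 3. Over both strains the aortic difference was 0.75 (SE 0.29, limma adjusted p = 0.302), and the muscle difference was -0.29 (SE 0.27, limma adjusted p = 0.63). Ednra is also among the muscle transcripts the study chose to show, through an accession not analysed here.

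Between the tissues, the fibroblast list was higher in aorta, as Ednra was, and the pericyte list was lower. All 8 fibroblast markers were called higher in aorta, with a median difference of 4.16, and their summed level (in multiples of the 75th percentile) was 312 to 686 on aortic arrays and 23.98 to 225 on muscle arrays. Of the 9 smooth muscle markers, 5 were called lower in aorta and none higher, with a median of -0.87. Of the 7 pericyte markers, 4 were called lower in aorta, with a median of -1.29. With HFD, the HFD/chow ratio of the pericyte sum had the sign of the Ednra difference, at 0.37 and 0.49 (log2) in WT and KO aorta and -0.58 and -0.25 in muscle, and none of its markers was called. The fibroblast sum had HFD/chow ratios of 0.29 and 0.34 in WT and KO aorta and of 0.85 and 1.097 in muscle, where the Ednra ratios averaged -0.55 and -0.04. The part of these cells in the Ednra values was not tested.

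Ednrb, the ETB receptor, was lower in aorta than in muscle. The level on aortic arrays was lowest at 1.67, had a median of 2.19 and was highest at 4.12, against 3.88, 4.28 and 4.78 in muscle, so that 1 aortic array reached the muscle range. The difference was -1.75 (SE 0.31, 3.35-fold, limma adjusted p = 0.000353), and the second Ednrb probe gave -1.66 (SE 0.38, limma adjusted p = 0.00318). Every muscle group mean, from 4.39 ± 0.46 in KO HFD to 4.06 ± 0.10 in WT HFD, lay above every aortic mean. The arrays of WT HFD muscle did not overlap with those of the next group, KO chow aorta. Of the 12 endothelial markers, 10 were also called lower in aorta and none higher, with a median of -1.06, and their part in the Ednrb difference was not tested.

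Ednrb in KO aorta was 2.95, 3.75 and 3.83 on chow and 1.77, 1.67 and 2.10 on HFD, so that the diets did not overlap. The log2 ratios of -1.18, -2.08 and -1.73 were past 1 in all 3 experiments, the criterion that the methods of the study used for dysregulated transcripts. In KO aorta, Ednrb was the only 1 of the 8 genes below -1 in all 3, against 1.13% of all probes tested, and no gene was above 1. The second Ednrb probe, well above background on all 12 aortic arrays, had KO ratios of -2.29, -0.70 and -0.15. It did not meet the criterion, and its diets overlapped in KO aorta. In WT aorta, the ratios of the brighter probe were 0.08, -2.25 and 0.37. All 12 endothelial markers were also lower on HFD in KO aorta, with a median of -0.95 and none called, and their part in the Ednrb values was not tested. The aortic difference over both strains was -1.13 (SE 0.37, limma adjusted p = 0.264), and the second probe gave -0.80 (SE 0.46). In muscle, the probes differed in sign, with -0.16 (SE 0.15) on the brighter and 0.52 (SE 0.19) on the other, and neither passed the threshold. No gene met the criterion in WT aorta, WT muscle or KO muscle, where 1.64%, 1.85% and 1.01% of all probes met it in either direction.

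Agt, angiotensinogen, which adipocytes and liver also secrete, differed most between the tissues. Its aortic level was lowest at -2.64, had a median of 1.04 and was highest at 2.55, against -6.13, -4.57 and -2.09 in muscle. The tissues overlapped through the lowest aortic array, which lay below 2 muscle arrays of experiment 1, at -2.09 in KO chow and -2.46 in WT HFD. The difference was 4.73 (SE 0.63, 26.5-fold, limma adjusted p = 1.98e-05). The probe was well above background on all 12 aortic and on 11 of 12 muscle arrays. Group means were 1.85 ± 0.78 in WT chow aorta, 1.33 ± 0.51 in KO chow aorta, -0.10 ± 1.71 in KO HFD aorta and -0.62 ± 1.87 in WT HFD aorta, and the muscle means ran from -3.44 ± 1.37 in KO chow to -4.45 ± 1.86 in WT HFD.

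Agt was lower on HFD in all 6 aortic pairs. In WT aorta it was 2.00, 1.02 and 2.55 on chow and 1.05, -0.27 and -2.64 on HFD. In KO aorta it was 1.89, 0.90 and 1.196 on chow and 1.72, -0.32 and -1.69 on HFD. The log2 ratios spread widely, from -5.19 to -0.18, with means of -2.47 ± 2.36 in WT and -1.43 ± 1.36 in KO. Over both strains the value was -1.95 (SE 0.63, limma adjusted p = 0.261), which did not pass the threshold. In muscle, 5 of 6 pairs were lower on HFD, with a mean over both strains of -0.43 (SE 0.33, limma adjusted p = 0.547). The highest muscle level in each group was that of experiment 1.

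The adipocyte list also stood apart in aorta. Its summed level was 73.7 to 135 in WT chow aorta and 79.9 to 258 in KO chow aorta, against 3.25 to 11.4 in WT HFD and 4.94 to 12.2 in KO HFD aorta. In muscle it was 6.62 to 60.4 on chow and 1.31 to 11.3 on HFD. Of the 6 adipocyte markers with a probe, Lep was not well above background on any array of 7 of the 8 groups. Between the tissues, 4 of 5 adipocyte markers tested were called higher in aorta, with a median of 2.28. All 8 fibroblast markers were called higher too, with a median of 4.16. On HFD the fibroblast sum rose in aorta, with mean ratios (log2) of 0.29 in WT and 0.34 in KO, where Agt was lower. The part of adipocyte or fibroblast RNA in the Agt values was not tested. In experiment 1, both aortic HFD arrays had Agt at 1.05 and 1.72 while the adipocyte list was at its lowest aortic sums of 3.25 and 4.94. In muscle, the adipocyte sum and Agt were both highest in experiment 1 in each group, with 60.4 and -2.09 in KO chow. The sums of the fibroblast, skeletal muscle fibre, and Schwann and neural lists were also highest in experiment 1 in each muscle group, so this is not particular to adipocytes.

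**Figure D2:**
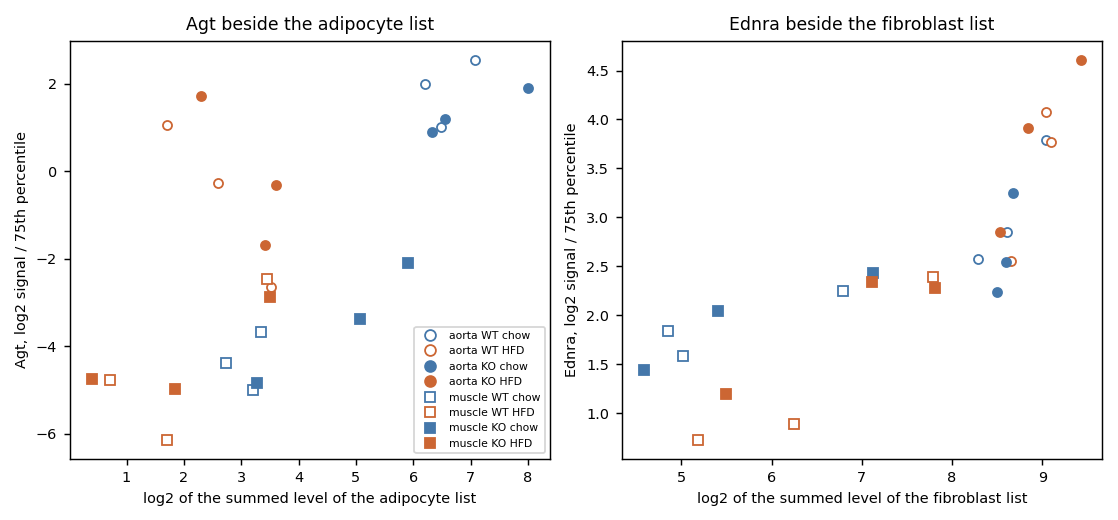
Agt against the summed level of the adipocyte list (left) and Ednra against that of the fibroblast list (right), 1 symbol per array, both axes on a log2 scale; circles are aorta, squares muscle, blue chow, orange HFD, open WT and filled KO. The aortic chow arrays lie to the right in the left panel, with adipocyte sums of 73.7 to 258, and all aortic arrays lie to the right of muscle in the right panel.

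Ace, angiotensin-converting enzyme, had a similar level in both tissues and, on its brighter probe only, opposite responses to HFD in KO. Aortic arrays ranged from -1.87 to -0.37 and muscle arrays from -1.93 to -0.75, and the tissues differed by 0.32 (SE 0.21, limma adjusted p = 0.261). In KO aorta Ace was -1.13, -1.87 and -1.70 on chow and -0.37, -1.02 and -0.75 on HFD. All HFD arrays of KO aorta lay above all chow arrays, with a mean ratio of 0.85 ± 0.09. In KO muscle it was -0.75, -1.35 and -1.67 on chow and -0.998, -1.74 and -1.86 on HFD, a mean of -0.28 ± 0.10 with all 3 pairs lower and overlapping diets. In WT muscle it was -1.07, -1.17 and -1.09 on chow and -1.54, -1.93 and -1.92 on HFD, so that the diets did not overlap and the mean ratio was -0.69 ± 0.19. The WT aortic ratios were -0.53, 0.82 and -0.03.

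Over both strains Ace gave 0.47 (SE 0.22, limma adjusted p = 0.375) in aorta and -0.48 (SE 0.14, limma adjusted p = 0.188) in muscle. The difference between the tissues was 0.95 (SE 0.25, limma adjusted p = 0.282). None of these passed the threshold. A second, dimmer Ace probe, well above background on 10 of 12 aortic and 9 of 12 muscle arrays, gave -0.18 (SE 0.45) in aorta and -0.02 (SE 0.41) in muscle, so that its response in aorta minus that in muscle was -0.16 (SE 0.66), of opposite sign to the brighter probe. These values average strains that moved apart on the second probe. Its mean ratios were -1.06 in aorta and -1.38 in muscle in WT, and 0.71 and 1.35 in KO. In KO muscle all 3 of its pairs were higher on HFD, opposite to the brighter probe.

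Agtr1a, the AT1a receptor, was lower on HFD in 11 of 12 pairs, with the exception of 1 WT muscle pair with a ratio of 0.01. At least 11 pairs were lower for 2.94% of all probes. In WT aorta the level was 2.62, 3.17 and 2.58 on chow and 2.14, 2.07 and 1.82 on HFD, and the diets did not overlap. In KO aorta it was 2.43, 2.63 and 3.30 on chow and 2.12, 2.44 and 1.69 on HFD, and 1 HFD array lay above the lowest chow array. The mean ratios were -0.78 ± 0.31 in WT aorta and -0.70 ± 0.78 in KO aorta. In KO muscle it was 3.51, 3.11 and 3.52 on chow and 3.02, 2.64 and 2.56 on HFD, which did not overlap, and in WT muscle the ratios averaged -0.59 ± 0.53.

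Over both strains Agtr1a gave -0.74 (SE 0.25, limma adjusted p = 0.267) in aorta and -0.61 (SE 0.19, limma adjusted p = 0.196) in muscle. Over all 12 pairs, in the comparison added later, it was -0.68 (SE 0.15, 1.60-fold, limma adjusted p = 0.0481), and without any 1 experiment the adjusted p lay between 0.188 and 0.286. With both tissues averaged in each pool, Agtr1a did not pass (SE 0.19, limma adjusted p = 0.164). Over all 12 pairs, with the tissues taken as independent, the second, dimmer Agtr1a probe gave -0.54 (SE 0.13, limma adjusted p = 0.0556). Between the tissues, the brighter probe was -0.47 (SE 0.22, limma adjusted p = 0.11) in aorta relative to muscle and the other -0.66 (SE 0.20, limma adjusted p = 0.0201). Group means ran from 3.38 ± 0.23 in KO chow muscle to 2.01 ± 0.17 in WT HFD aorta. The closely related Agtr1b was well above background on 2 of 12 aortic and 8 of 12 muscle arrays, and whether the Agtr1a probes tell the copies apart is not given in the sources used here.

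Agtr2, the AT2 receptor, was near background. Its probe was well above background on 6 of 12 aortic arrays, among them all 3 of WT HFD, and on none of 12 in muscle. The level in aorta was -5.07, -4.54 and -8.33 in WT chow, -4.29, -4.47 and -5.36 in WT HFD, -7.57, -7.69 and -8.08 in KO chow and -3.69, -5.55 and -8.62 in KO HFD. It was thus not well above background on any KO chow array and varied over experiments in the other groups. The fitted HFD response over both strains was 1.55 (SE 0.62, limma adjusted p = 0.32). Agtr2 passed the aortic filter only through WT HFD, where it was highest, so this response is no support for a change with diet. Against muscle, where the probe was not well above background, Agtr2 was at least 2.76-fold higher in aorta for WT HFD and at least 1.04-fold higher over all arrays. These bounds were not tested. The fitted tissue difference, which uses the muscle signals not well above background, was 1.89 (SE 0.63, limma adjusted p = 0.0304). Without experiment 1 the fitted tissue difference did not pass the threshold (1.27, limma adjusted p = 0.253), nor did it without experiment 2 (1.41, limma adjusted p = 0.375), and with normexp background correction it was 0.59 (limma adjusted p = 0.169). The bounds set the mean of the aortic arrays against the lowest signal that counted as well above background on each muscle array.

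**Figure D3:**
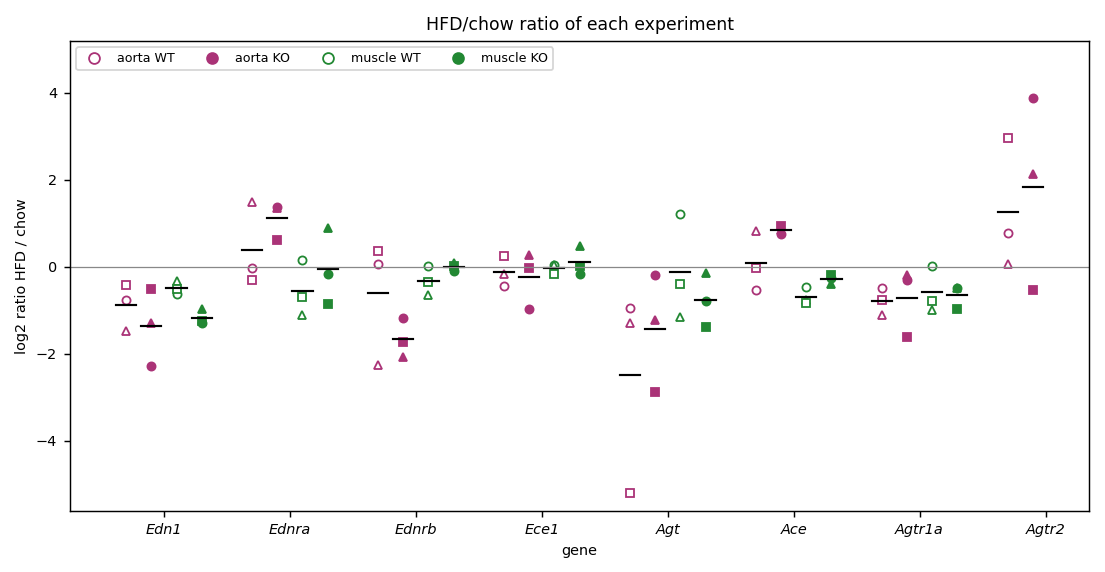
Log2 ratio of HFD to chow in each experiment for the 8 genes tested in at least 1 tissue; circles, triangles and squares are experiments 1, 2 and 3, black bars are means (n = 3), and Agtr2 in muscle, where it was not tested, is left out. All 12 Edn1 ratios lie below 0, and the KO ratios of the brighter Ace probe lie above 0 in aorta and below 0 in muscle.

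Set side by side, HFD against chow called none of the genes within a tissue. Over both strains, 0 of 8 genes in aorta and 0 of 7 in muscle were called, where 0.0309% and 0.253% of all probes were. At an unadjusted p below 0.05, limma counted 6 of the 8 in aorta (Edn1, Ednra, Ednrb, Agt, Agtr1a and Agtr2) and 3 of the 7 in muscle (Edn1, Ace and Agtr1a), against 15.0% and 16.3% of all probes. Agtr2 entered the aortic test only through WT HFD, the group where it was highest, so its count is no support. The median difference of the genes was -0.46 in aorta and -0.43 in muscle, beside 0.01 and -0.01 over all probes tested. In WT alone, 0 genes were called in each tissue, as for 0% of all probes, with 1 in aorta (Agt) and 2 in muscle (Edn1 and Ace) at an unadjusted p below 0.05, against 5.7% and 12.0% of all probes. In KO alone, 0 genes were called, where 0% of aortic and 0.00389% of muscle probes were, with 4 in aorta and 2 in muscle at an unadjusted p below 0.05, against 11.2% and 8.48%. The test on the 3 ratios that the methods of the study name called 0 genes after Benjamini-Hochberg adjustment and, before it, 1 and 3 genes in WT and KO aorta and 2 in each strain in muscle. Over all probes, that test counted 1228 and 1749 of 25865 in WT and KO aorta and 2122 and 1293 of 25682 in WT and KO muscle. The adipocyte list moved with diet as well: over all 12 pairs 4 of its 5 markers tested were called lower on HFD, with a median of -2.63, and 3 were with both tissues averaged in each pool. Its part in the values of the genes lower on HFD was not tested.

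The strains were compared to ask whether galectin-3 deletion changed these genes or their response to HFD. KO against WT called 0 of 8 genes in aorta, where 0.0116% of all probes were called on chow and 0.00387% on HFD, and 0 of 7 in muscle on either diet, where 0% were. On its brightest probe, no gene had an unadjusted p below 0.05 in these 4 limma comparisons, as 4.4% and 1.15% of probes did in aorta and 2.41% and 3.18% in muscle on chow and HFD. The second, dimmer Ace probe was higher in KO on HFD by 1.36 in aorta (limma unadjusted p = 0.043) and by 1.89 in muscle (limma unadjusted p = 0.0392), with an adjusted p of 1 in both. The largest aortic value among genes well above background on every array was 0.77 (SE 0.54) for Ednrb on chow. The response to HFD in KO minus that in WT called 0 genes, as for 0% of all probes, in aorta and in muscle. At an unadjusted p below 0.05, it counted 0 genes in aorta and 1 (Edn1) in muscle, against 2.63% and 4.12% of all probes.

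The Edn1 response in muscle was lower in KO than in WT, with a difference of -0.68 (SE 0.28, limma adjusted p = 0.999), and the 3 ratios of the strains did not overlap. The exact permutation test of 3 ratios against 3 cannot go below 0.1, 2-sided, and that value was reached for Edn1 and for Ace in muscle, where the KO ratios lay above the WT ratios. Over the 15 such tests the Benjamini-Hochberg adjusted value of both was 0.75. The difference of the HFD response between aorta and muscle called 0 of 8 genes, as for 0% of all probes, and at an unadjusted p below 0.05 it counted Ednra, Ednrb and Ace, 3 of 8 against 9.2% of probes. Ednra gave 1.05 (SE 0.42, limma adjusted p = 0.479) and Ednrb -0.98 (SE 0.42, limma adjusted p = 0.519).

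Between the tissues, 5 of 8 genes were called, beside 28.2% of the 27387 probes. Agt, Ednra and Agtr2 were higher in aorta, where 11.5% of all probes were called higher, and Ednrb and Ece1 were lower, where 16.7% were. Agtr2 passed the filter only through WT HFD aorta, where it was highest, so its call is no support, and without it 4 of 7 genes were called. All probes together had a median difference of -0.27 on this scale. Relative to that median, Agt stood at 4.999, Ednra at 1.74, Ace at 0.59, Edn1 at 0.30, Agtr1a at -0.20, Ece1 at -0.23 and Ednrb at -1.47, so that no sign of these genes turned. On the scale of the deposited log2 table, the median difference was -0.01 and 4190 probes were called higher and 2082 lower, against 3142 and 4573 on the main scale. There Ece1 was -0.24 and did not pass (limma adjusted p = 0.413). With the replicate block, which pairs the aortic and muscle arrays of the same animals, 6 genes and 15590 probes were called, against 7715 probes without it, and Agtr1a was the gene added (limma adjusted p = 0.0085). That fit leaves out the slide. With the slide kept as a random block beside the pairing, 6 genes and 15921 probes were called, and with neither block 6 genes and 12577 probes, Agtr1a among the 6 in each. The 8 skeletal muscle fibre markers were all called lower in aorta, with sums of at most 4.76 on aortic and 16.3 to 117 on muscle arrays, and their part in the tissue differences was not tested.

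**Figure D4:**
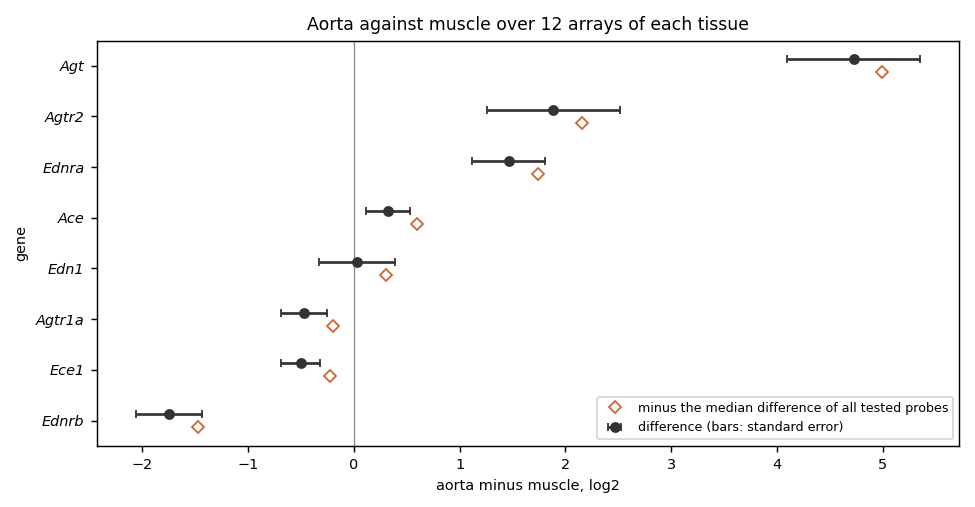
Aorta minus muscle (log2) for the 8 genes tested, over 12 arrays of each tissue; circles show the fitted difference with its standard error and diamonds the difference minus the median of all tested probes. Agt, Agtr2 and Ednra lie to the right of 0 and Ednrb and Ece1 to the left; Agtr2 was not well above background in muscle.

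Other genes of the same pathways were taken from 5 lists of 31 genes, 30 of which had a probe. Between the tissues, 26 were tested, 6 were called higher in aorta and 3 lower, with a median of -0.11. Of all 27387 probes, 11.5% were called higher in aorta and 16.7% lower. Among those with the largest differences, Ren1 (renin), Kng1 (kininogen), Mme (neprilysin, which degrades endothelin-1, 3.99, SE 0.58), Anpep (aminopeptidase N, which trims angiotensins, 2.66, SE 0.41) and Ece2 (2.20, SE 0.22) were higher in aorta. Prcp (prolylcarboxypeptidase, -0.81, SE 0.22) and Sgk1 (a kinase induced by mineralocorticoids, -0.75, SE 0.20) were lower. The probe used for Ren1 was not well above background on any muscle array, and Ren1 was at least 18.2-fold higher in aorta. Kng1 was well above background on 1 of 12 muscle arrays, in KO HFD, and was at least 17.4-fold higher in aorta in WT chow, 10.9-fold in WT HFD and 31.6-fold in KO chow. Ren1 and Kng1 passed the filter only through aortic groups, where they were higher, so their calls are no support.

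None of the other genes was called by HFD within a tissue, for 23 tested in each tissue. At an unadjusted p below 0.05, there were 5 in aorta and 10 in muscle over both strains, against 15.0% and 16.3% of all probes. The smallest p over both strains in aorta belonged to Thop1 (thimet oligopeptidase, 0.82, SE 0.22, limma adjusted p = 0.212). In other comparisons, it belonged to Thop1 in WT aorta (0.91), Ece2 in KO aorta (1.02), Ctsg in KO muscle (0.90) and Prcp for the response in aorta minus muscle (-0.82). It belonged to Cma1, a mast cell chymase, for both aortic comparisons of KO with WT (1.55 on chow, -0.90 on HFD) and for the strain difference of the response (-2.45), and in muscle to Prep (0.39 for KO against WT on chow) and Edn2 (-1.89 for the response). None of these passed the threshold. In muscle, Edn2 was well above background on all 3 arrays of WT HFD only, the group where it was highest, so its value is no support. Over all 12 pairs, in the comparison added later, Ctsg (cathepsin G, which can form angiotensin II, 0.52, SE 0.11, limma adjusted p = 0.0378), Prep (prolyl endopeptidase, 0.52, SE 0.11, limma adjusted p = 0.0401) and Thop1 (0.69, SE 0.15, limma adjusted p = 0.043) were called higher on HFD, 3 of 26 tested, and none was called lower. With both tissues averaged in each pool, 0 of these 3 passed, with limma adjusted p = 0.154 for Ctsg, 0.159 for Prep and 0.12 for Thop1.

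The genes whose level was most like that of each gene over the 12 arrays of a tissue are given as a description, since arrays of a tissue share groups and slides. In aorta, Edn1 was closest to Naip2, Enpp4 and Selp, with Pearson r from 0.96 to 0.97, Ednra to Mpnd (0.98), and Ednrb to Ptger4 and Cav1 (both 0.95). Ece1 was closest to Olfr1404 and Tmbim4 in aorta (both 0.94), and Epas1 was the next for Ece1 in aorta (0.93) and first for Ace in muscle (0.94). Notch3, a pericyte marker, was among the 3 closest to Ednra in muscle (0.94), and Agt was closest to Tmem161b in aorta (0.89) and Rbms3 in muscle (0.98). Agtr1a was closest to Rpain in aorta (0.92) and Grk3 in muscle (0.96).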

How the data were processed

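RNA of the sorted cells was amplified, labelled with Cy3 and hybridised to single-colour Agilent mouse arrays. The deposited intensity of each spot was made by Feature Extraction software (10.5.1.1 in the file headers, 9.1 in the processing notes of the submitters), which subtracts background and does not scale arrays to each other. The authors also deposited a log2 table that equals these values plus 1 constant per array.

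Intensities were divided by the 75th percentile of their array and log2 transformed, spots marked as outliers were dropped, and repeated spots of 1 probe were averaged. Probes were matched by accession to symbols of the GRCm38.p6 gene table (27198 of 41174). The filter left 25865 probes in aorta, 25682 in muscle and 27387 over both. limma 3.58.1 (R 4.3.3) compared HFD with chow with a block for each strain and experiment, KO with WT by group means, and aorta with muscle with the slide as a random block. Probes were called at a Benjamini-Hochberg adjusted p below 0.05 over all probes tested. The fits were also run on simulated data with independent noise and nothing shared within pairs or slides, so that run does not check the calls. Same-numbered arrays of aorta and muscle come from the same animals, and their deviations from group means correlated by more than 0.1 in 9 of 12 pairs. For HFD and chow this held in 7 of 12 pairs. For KO and WT arrays of the same slide it held in 11 of 12 pairs, although the strains were compared without a block. Pools are the replicates, with 3 pools in each group of strain and diet. The limma p-values rest on a spread per probe, estimated over all arrays of a fit and moderated across probes.

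The genes, lists and alternatives were chosen with earlier results of these data known. Named are the 9 genes, list genes that passed (the 8 largest where more did, the smallest p where none did), and the 3 symbols with the highest Pearson correlation to each gene. Alternatives were normexp (offset 50, on median signals), quantile normalization, the deposited table, other filters, the mean over probes, each experiment left out, and other blocks. The slide beside the animal pool and the mean of both tissues in each pool were added after seeing the data. No date or position of the probes within transcripts was used. A gene that the rule names is not reported here.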

Additional observations from a re-analysis of the deposited data

Results flagged for a closer look

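Ace in KO differed in direction between the tissues: the HFD/chow ratio (log2) averaged 0.85 in aorta, where all 3 experiments were higher on HFD, and -0.28 in muscle, where all 3 were lower. The difference within KO was not tested on its own. Over both strains the tested difference was 0.95 (limma adjusted p = 0.282), and the second Ace probe gave -0.16. Within KO, the second probe averaged 0.71 in aorta and 1.35 in muscle, so that its direction did not differ between the tissues and was opposite to that of the brighter probe in muscle.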

How the results depend on the processing

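Of 114 single values of a gene in a comparison, recomputed under 1222 alternatives, 1140 kept their sign and side of the threshold, 55 uncalled values changed sign (38 of them with an experiment left out), 21 calls were lost and 6 were gained. No called value changed sign. Between the tissues, 5 genes were called, and 2 were with only probes well above background on every array, by construction without Agt and Agtr2, and with Ece1 at a limma adjusted p of 0.0567. With an experiment left out, 2 to 4 were called. With the replicate block of the same animals, 6 were called, as with the slide kept beside that block and with neither block, at 15590, 15921 and 12577 probes. In HFD against chow over both strains in muscle, 1 gene (Edn1) was called with only probes well above background on every array. For KO against WT, the replicate block by experiment called 0 genes, as without it. Dropping the block of strain and experiment called 0 genes within a tissue.

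Over all 12 pairs of both tissues, an alternative chosen after seeing the data, 2 genes were called, against 1 without a filter on dim probes, 1 without the replicate block, 3 with the slide as a block (Edn1, Agt and Agtr1a), 0 with both tissues averaged in each animal pool and 0 with any experiment left out. For the criterion of 1 log2 in all 3 experiments, a threshold of 0.75 was met by 1 gene in WT aorta (Agt), 2 in KO aorta and 1 in KO muscle (Edn1), against 0, 1 and 0 at 1. At 0.75, 375 of all probes were lower in WT aorta (as Agt), 535 lower (as Ednrb) and 772 higher (as Ace) in KO aorta, of 25865 each, and 283 of 25682 lower in KO muscle (as Edn1). Quantile normalization gave 1 in KO muscle. With an experiment left out, the count was 0 to 1 in WT aorta, 1 to 4 in KO aorta (2 without experiment 1, 4 without experiment 3) and 0 to 1 in KO muscle. The causes of these shifts were not tested. Edn3 and Agtr2 were limited by signal near background, and 3 arrays a group limit the precision.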
